A study of Mus musculus with 2 samples.

Results

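Prostaglandins are signalling lipids made in steps from arachidonic acid, and 10 genes of their synthesis, breakdown and sensing were followed in mouse embryonic fibroblasts (MEFs) that lack or carry the NF-kB subunit p65. The genes were chosen by name, with earlier results of these data known. They are the phospholipase gene Pla2g4a, the cyclooxygenase genes Ptgs1 and Ptgs2, and the prostaglandin E synthase genes Ptges, Ptges2 and Ptges3. The others are the prostacyclin synthase gene Ptgis, the breakdown enzyme gene Hpgd, and the prostaglandin E2 receptor genes Ptger2 and Ptger4. Of these 10, 9 were found among the 16881 transcripts of the deposited table and 8 had a mean of at least 1 normalised CPM (each gene's fragments relative to the library's total, scaled between libraries), the minimum for calling a gene measured, which 12135 transcripts passed. Hpgd was not analysed here, and Ptger2 was under the minimum.

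Cytosolic phospholipase A2 frees arachidonic acid from membrane lipids, a cyclooxygenase turns it into prostaglandin H2, and terminal synthases make prostaglandin E2 or prostacyclin from that shared intermediate. Cyclooxygenase-1 is commonly present at a steady level, whereas cyclooxygenase-2 and the microsomal synthase encoded by Ptges are known as inducible enzymes of inflamed tissue, and fibroblasts are a familiar source of prostaglandin E2. NF-kB, of which p65 is a subunit, is a well-known activator of Ptgs2.

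The study set immortalised MEFs of genotype p65-/- (p65 null) beside immortalised MEFs of genotype p65+/+ (p65 WT), both of strain C57BL/6, to find genes expressed differently without p65. The labels name no treatment, and they do not say how either culture was immortalised or whether it is a clone. There was 1 library per genotype, so no difference has a replicate check, no test was made and no p-value is given. Ratios are p65 null over p65 WT, each with an exact 95% counting interval that covers counting error in these 2 libraries and no variation between cultures.

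The p65 null library held 15441394 fragments and the p65 WT library 20794476. Rela, the gene for p65, stood at 13.1 normalised CPM in the p65 null and 90.5 in the p65 WT library, so 14.5% of the p65 WT level remained (12.4% to 16.8%). The cultures also differed in sex-linked RNA: Xist had 2 fragments in the p65 null and 956 in the p65 WT library, and the Y-linked gene Ddx3y 106.5 and 0. Differences between the cultures other than p65 therefore cannot be told apart from the genotype. All 13 fibroblast markers looked up were measured, summing to 24932 normalised CPM in the p65 null and 12197 in the p65 WT library, with 6 of them higher by 2-fold or more in p65 null and 1, Thy1, lower by that margin. Markers of other cell types were scarce: the 6 leukocyte genes found summed to 10.001 normalised CPM in p65 null and 20.7 in p65 WT, 5 endothelial genes to 2.24 and 3.40, and 6 epithelial genes to 2.81 and 0.118. Of the 3 measured leukocyte genes, 1 was lower by 2-fold or more in p65 null and 1 higher. Cd14 stood at 4.39 normalised CPM in p65 null and 17.0 in p65 WT, and Cd68 at 4.06 and 1.37. Ptprc, the pan-leukocyte marker, and the endothelial cadherin gene Cdh5 were at 0 in the p65 null library. The endothelial genes Tek and Tie1 and the epithelial genes Epcam, Cdh1, Krt18 and Krt5 were at 0 in the p65 WT library. In p65 null, Krt18 had 23 fragments and Cdh1 had 11. The part of these marker differences in the results was not tested. In bulk RNA, fewer cells expressing a gene and less of its RNA per cell cannot be told apart.

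The stretch of DNA before Ptgs2 is where the members' largest absolute difference begins, and the starts of Ptges, Pla2g4a and Ptges2 are shown beside it for comparison, the first a gene with a larger ratio, the second a neighbour of Ptgs2, and the last the member that was not lower. Each window runs from 250 bases before to 50 bases after an annotated transcript start (RefSeq, GRCm38.p6; the outermost where a gene has several windows), 5′ to 3′ on the gene's strand, with capitals marking the motif matches described next. The windows are chr1:150099781-150100080 (plus strand) for Ptgs2, chr2:30903248-30903547 (minus strand) for Ptges, chr1:149961241-149961540 (minus strand) for Pla2g4a and chr2:32395640-32395939 (plus strand) for Ptges2. The Ptges window lies 27723 bases inside the RefSeq gene span given below, at the start of the GENCODE transcript matched to NM_022415, whereas the other 3 lie at the ends of their spans. The Ptgs1 window, searched but not shown, likewise lies 13684 bases inside its span.
Ptgs2: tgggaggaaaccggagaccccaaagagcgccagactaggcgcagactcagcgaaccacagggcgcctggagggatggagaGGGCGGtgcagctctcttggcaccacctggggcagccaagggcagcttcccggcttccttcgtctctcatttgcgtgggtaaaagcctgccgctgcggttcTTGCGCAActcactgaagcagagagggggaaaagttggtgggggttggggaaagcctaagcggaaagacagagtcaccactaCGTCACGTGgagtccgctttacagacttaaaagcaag
Ptges: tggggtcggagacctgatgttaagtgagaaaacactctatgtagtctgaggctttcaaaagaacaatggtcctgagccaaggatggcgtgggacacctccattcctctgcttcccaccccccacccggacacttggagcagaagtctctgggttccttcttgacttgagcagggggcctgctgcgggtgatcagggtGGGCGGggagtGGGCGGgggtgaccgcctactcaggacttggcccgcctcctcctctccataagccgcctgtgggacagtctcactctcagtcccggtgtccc
Pla2g4a: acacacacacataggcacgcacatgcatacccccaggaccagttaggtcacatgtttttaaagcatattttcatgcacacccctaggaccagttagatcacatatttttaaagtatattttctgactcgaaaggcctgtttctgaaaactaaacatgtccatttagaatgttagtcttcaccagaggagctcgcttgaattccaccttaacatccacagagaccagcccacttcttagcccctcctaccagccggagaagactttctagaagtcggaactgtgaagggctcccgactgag
Ptges2: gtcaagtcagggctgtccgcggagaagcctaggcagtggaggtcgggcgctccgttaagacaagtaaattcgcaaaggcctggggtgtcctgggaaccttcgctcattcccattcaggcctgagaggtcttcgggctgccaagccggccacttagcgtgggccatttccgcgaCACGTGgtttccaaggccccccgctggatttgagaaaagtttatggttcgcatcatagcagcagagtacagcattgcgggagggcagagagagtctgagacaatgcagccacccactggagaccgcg

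In the Ptgs2 window, the capitals in order of position are a GC box (GGGCGG) at -170, a C/EBP-type match (TTGCNNAA) at -69, and a cyclic AMP response element core (CGTCA) at 13 that shares 2 bases with an E-box (CACGTG) at 16, the annotated start base counting as 0. The Ptges window held 2 GC boxes, at -53 and -42, the Ptges2 window an E-box at -77, and the Pla2g4a window none of the motifs searched. The search covered both strands of the 8 member windows in the RefSeq table, which had no entry for Ptgis. The kB consensus, the binding motif named after NF-kB, matched in 0 of these 8 windows and in 4.50% of all 32851 windows of the same length. The full cyclic AMP element TGACGTCA (1.79% of all windows) and the TATA motif TATAAA (13.6%) also matched in 0 of the 8. The core CGTCA matched in 2 (20.8% of all windows), the E-box in 2 (7.15%), the C/EBP-type motif in 2 (10.8%) and the GC box in 4 (35.7%). These matches describe letters in a short window and say nothing of distal sites.

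In p65 null, 6 of the 8 measured members were lower by 2-fold or more and 0 were higher by that margin. Among all measured genes the shares were 13.7% lower and 12.2% higher, or 25.9% either way. The members were chosen with earlier results of these data known, so these shares describe the list and test nothing. For 6 members the counting interval was past 2-fold lower at both ends, as it was for 9.1% of measured genes. A difference of at least 4-fold was reached by Ptges, Ptgs2 and Ptgis, all lower in p65 null, a margin that 3.5% of measured genes reached in that direction. Ptges and Ptgs2 were also past 8-fold, as were 1.67% of measured genes. The median log2 ratio over the 8 was -1.56, with a range from -4.96 for Ptges to 0.33 for Ptges2, against a median of -0.03 over all measured genes. When the libraries were scaled to 76 ribosomal protein genes, the median of all genes shifted by -0.41, 24.9% of genes were lower and 7.42% higher by 2-fold, and 7 of the 8 members were past 2-fold lower.

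**Figure D1:**
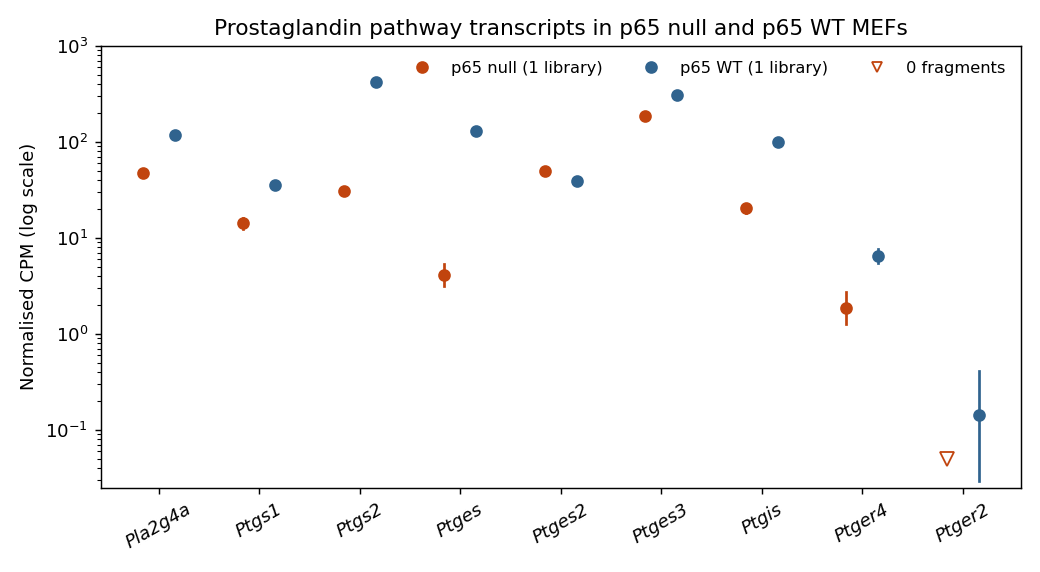
Normalised CPM (log axis) of the 9 genes found, with 1 library per genotype; bars are exact 95% Poisson intervals for counting error, and the open triangle, drawn near the foot of the axis, marks 0 fragments. Ptges2 is the gene for which the p65 null point lies above the p65 WT point, at 49.6 against 39.6.

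Arachidonic acid release was represented by Pla2g4a (transcript NM_008869, chr1:149829618-149961290), which encodes the calcium-regulated cytosolic phospholipase A2. It stood at 47.7 normalised CPM in the p65 null and 117 in the p65 WT library, from 723 and 2481.5 fragments, which is 2.45-fold lower in p65 null (2.26 to 2.67). Log2 ratios over all genes followed transcript GC content (Spearman 0.44 across genes, which are not independent replicates), and after a correction for GC content and length the log2 ratio of Pla2g4a was -0.64 in place of -1.29, short of 2-fold.

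The cyclooxygenase genes were both lower in p65 null, but unequally. Ptgs2 (NM_011198, chr1:150100031-150108234) encodes the inducible cyclooxygenase-2. It stood at 30.6 normalised CPM in p65 null and 418 in p65 WT, from 463.5 and 8858 fragments. That is 13.7-fold lower (12.4 to 15.0), leaving 7.32% of the p65 WT level, and 1.15% of measured genes had a lower ratio. After the GC and length correction its log2 ratio was -2.78 in place of -3.77. Its transcript has a GC content of 40.0%. Ptgs1 (NM_008969, chr2:36216742-36258593), the gene for cyclooxygenase-1, stood at 14.3 normalised CPM in p65 null and 35.9 in p65 WT, a log2 ratio of -1.33 (-1.55 to -1.11). It shares 148 exon bases with the antisense gene Gm43621, and no source says if reads were counted by strand.

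A comparison of both cyclooxygenases inside each library does not depend on how the libraries were scaled. Per kilobase of transcript, Ptgs2 was 1.38 times the level of Ptgs1 in the p65 null library (1.17 to 1.63) and 7.49 times in the p65 WT library (6.96 to 8.08). The Ptgs2 to Ptgs1 ratio was thus 5.42-fold lower in p65 null (4.51 to 6.49), but 2.54-fold lower after the GC and length correction, which such ratios do depend on. Ptgs2 made up 58.0% of their summed level per kilobase in p65 null and 88.2% in p65 WT, and the sum was 11.9 normalised CPM per kilobase in p65 null and 106 in p65 WT.

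**Figure D2:**
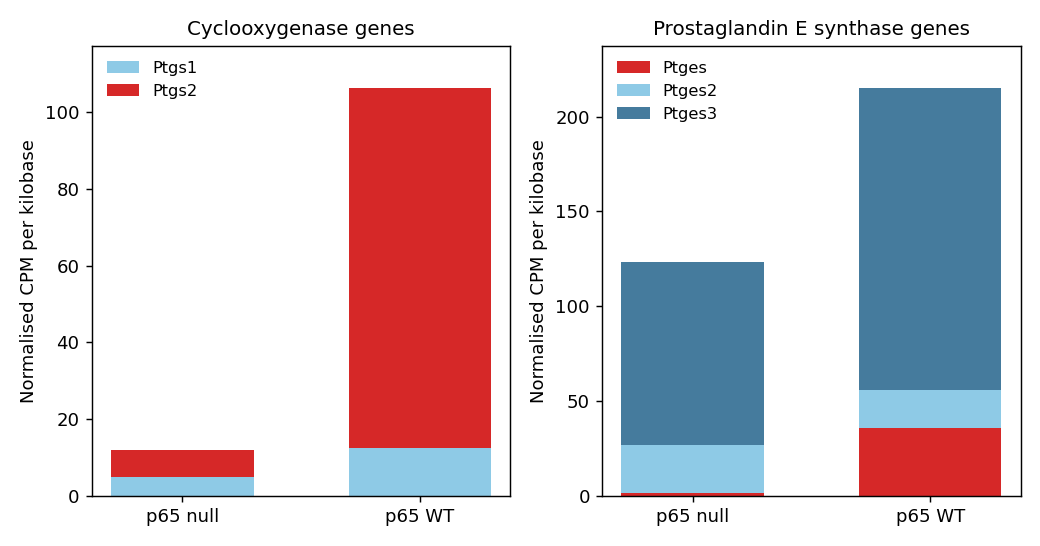
Levels per kilobase of the cyclooxygenase genes (left panel) and prostaglandin E synthase genes (right panel), stacked, with p65 null left of p65 WT and 1 library each. The Ptgs2 block is 6.87 normalised CPM per kilobase in p65 null and 93.8 in p65 WT, and the Ptges block is 1.14 and 35.5.

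Prostaglandin E2 is made by several synthases, and their genes did not move as a group. Ptges (NM_022415, chr2:30889471-30931020) encodes the microsomal synthase that is known to work together with cyclooxygenase-2. It had the lowest ratio of the members, at 4.16 normalised CPM in p65 null and 129 in p65 WT, from 63 and 2744.5 fragments. It was 31.1-fold lower in p65 null (24.3 to 40.6), leaving 3.21% of the p65 WT level, and its ratio ranked 71 from the lowest among 12135 measured genes. Its log2 ratio of -4.96 was -5.14 after the GC and length correction.

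Ptges2 (NM_133783, chr2:32395890-32402740), the gene for a second membrane-associated synthase, was at 49.6 normalised CPM in p65 null and 39.6 in p65 WT, 1.25-fold higher (1.14 to 1.39), a direction that turned to a log2 ratio of -0.08 under ribosomal protein scaling. Ptges3 (NM_019766, chr10:128058982-128077254), which encodes the cytosolic synthase also known as the Hsp90 co-chaperone p23, was at 188 normalised CPM in p65 null and 311 in p65 WT, 1.65-fold lower (1.58 to 1.73). Its log2 ratio of -0.73 was -0.26 after the GC and length correction and -1.13, past 2-fold, under ribosomal protein scaling. Pseudogenes of 2 loci match the Ptges3 transcript at 90% identity or more over at least 300 bases, so its reads may be shared; no other member had such a match.

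Set against Ptges2 in the same library, Ptges was 39.0-fold lower in p65 null than in p65 WT (29.8 to 51.9), and set against Ptges3 it was 18.8-fold lower (14.6 to 24.7). After the GC and length correction these were 38.8-fold and 29.4-fold. Per kilobase, Ptges stood at 0.0447 times Ptges2 in p65 null and 1.75 times in p65 WT. Its share of the 3 synthases was 0.927% in p65 null and 16.5% in p65 WT. Ptges3 held 78.3% in p65 null and 74.0% in p65 WT, and Ptges2 held 20.7% and 9.45%.

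Ptgis (NM_008968, chr2:167203194-167252150) encodes prostacyclin synthase, which makes a prostanoid best known as a vasodilator and inhibitor of platelets. It stood at 20.3 normalised CPM in p65 null and 99.3 in p65 WT, 4.88-fold lower (4.33 to 5.52), with 2.65% of measured genes at a lower ratio. Because Ptges differed more than Ptgis, the Ptgis to Ptges ratio per kilobase was 9.80 in p65 null (7.45 to 13.1) and 1.54 in p65 WT (1.45 to 1.63), 6.37-fold higher in p65 null (4.82 to 8.55).

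Both receptors in the set couple to cyclic AMP. Ptger4 (NM_001136079, chr15:5233399-5244187), the gene for the EP4 receptor, stood at 1.88 normalised CPM in p65 null and 6.49 in p65 WT, from 28.5 and 137.5 fragments. It was 3.45-fold lower (2.29 to 5.36), with the widest fold interval relative to its value among the 8. Ptger2 (NM_008964), the gene for the EP2 receptor, had 0 fragments in p65 null and 3 in p65 WT, at or under a floor of 3 fragments in both, so no ratio is given and a difference was not detectable at this depth. At 0 fragments the p65 null library still allows up to 3 fragments.

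**Figure D3:**
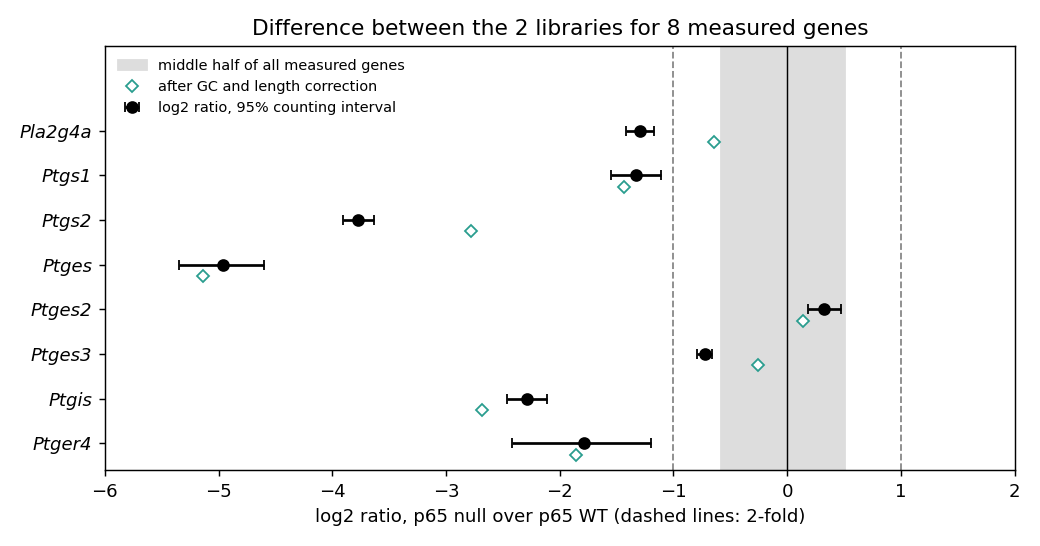
Log2 ratios (p65 null over p65 WT) of the 8 measured members with 95% counting intervals (black), the value after GC and length correction (open diamonds), the quartile range of all measured genes (grey, -0.58 to 0.50) and 2-fold lines (dashed). Ptges at -4.96 and Ptgs2 at -3.77 lie farthest to the left, and Ptges2 at 0.33 lies inside the grey band.

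The order of levels per kilobase also differed. In the p65 null library Ptges3 came first at 96.4 normalised CPM per kilobase, followed by Ptges2 at 25.5, Pla2g4a at 16.7, Ptgis at 11.2, Ptgs2 at 6.87, Ptgs1 at 4.99, Ptges at 1.14 and Ptger4 at 0.568. In the p65 WT library Ptges3 was first at 159, followed by Ptgs2 at 93.8, Ptgis at 54.6, Pla2g4a at 41.0, Ptges at 35.5, Ptges2 at 20.3, Ptgs1 at 12.5 and Ptger4 at 1.96. Counting intervals of neighbours in either order did not overlap. Ptgs2 was thus at place 5 in p65 null and place 2 in p65 WT, and Ptges2 at place 2 in p65 null and place 6 in p65 WT. Lengths for levels per kilobase are the exon bases of the matched GENCODE transcript inside the RefSeq gene, which may differ from the annotation used for counting. The GC and length correction used the whole matched transcript, which for Ptges2 has 4978 bases against 1946 inside the gene.

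Pla2g4a and Ptgs2 are neighbours on chromosome 1, 138740 bases apart, with 1 table entry between them, the non-coding gene Ptgs2os. Ptgs2os (NR_015466, chr1:150074873-150099874) starts 156 bases before the start of Ptgs2 and runs away from it on the other strand, so the 300-base Ptgs2 window shown above spans the gap between their starts. It stood at 0.396 normalised CPM in p65 null and 8.70 in p65 WT, from 6 and 184.5 fragments, 22.0-fold lower in p65 null (9.91 to 60.7). The next measured gene beyond Ptgs2, Odr4, lies 253070 bases away and stood at 11.8 normalised CPM in p65 null and 14.2 in p65 WT, a log2 ratio of -0.27 (-0.54 to 0.01). On the far side of Pla2g4a, 2927145 bases away, the measured neighbour Brinp3 had 0 fragments in p65 null and 56 in p65 WT. With the 0 set to a floor of 3 fragments, Brinp3 was 13.3-fold lower in p65 null. The end of its counting interval nearest no difference was 10.5-fold lower. Around Ptges, the measured neighbours were not lower: Prrx2 had a log2 ratio of 0.75 and Tor1b of 0.25. Around Ptgis, Znfx1 was at 0.53 and B4galt5 at 0.44. The measured neighbour of Ptges2 on 1 side, Lcn2, 8150 bases away, was at -4.16 while Ptges2 was at 0.33.

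**Figure D4:**
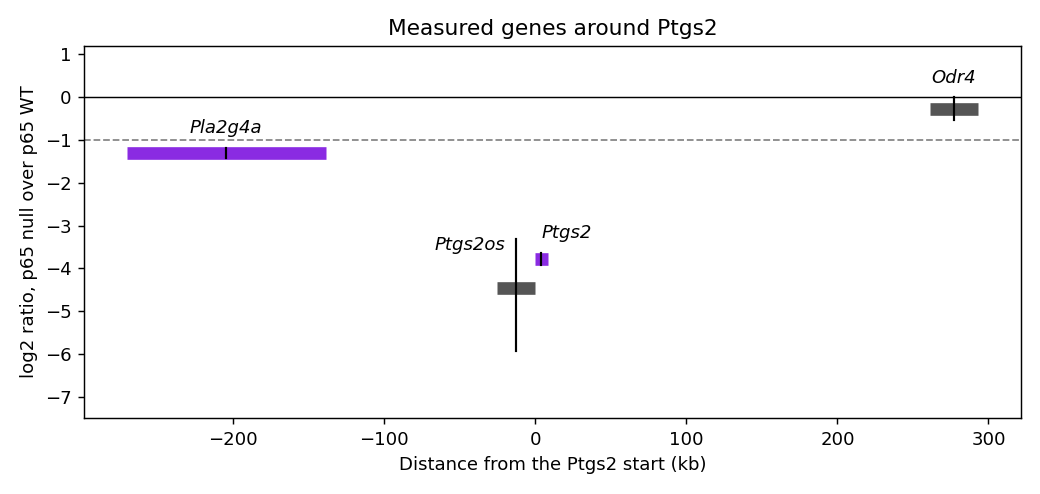
Log2 ratio (p65 null over p65 WT, 1 library each) of 4 measured genes around Ptgs2 (Brinp3, farther off, is not drawn), by distance from its start in kilobases; horizontal blocks span each gene, purple for members and grey for other genes, vertical lines are 95% counting intervals, and the dashed line is 2-fold lower. Ptgs2os and Ptgs2 lie side by side at -4.46 and -3.77, Pla2g4a is at -1.29 and Odr4 at -0.27.

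Beyond the members, 74 other genes of eicosanoid metabolism were looked up by role, of which 59 were found and 40 measured. Of these 40, 7 were lower in p65 null by 2-fold or more and 7 higher, or 17.5% each way, close to the 13.7% and 12.2% of all measured genes. Their median log2 ratio was 0.08, which turned to -0.38 under ribosomal protein scaling, -0.14 after the GC and length correction and -0.08 with a minimum of 5 CPM.

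Transport was the role in which all 3 measured genes looked up were lower by 2-fold or more, against 13.7% of all measured genes. Slco2a1, the prostaglandin transporter that takes prostanoids up for breakdown, stood at 7.03 normalised CPM in p65 null and 20.2 in p65 WT, 2.87-fold lower (2.32 to 3.59). Abcc4, an exporter that carries prostaglandin E2 among other substrates, was 2.43-fold lower (2.13 to 2.77), and Slco3a1, a related organic anion transporter, 2.50-fold lower (2.15 to 2.90). In arachidonate handling, Acsl4, the acyl-CoA synthetase that prefers arachidonic acid, was at 13.6 normalised CPM in p65 null and 64.2 in p65 WT, 4.71-fold lower (4.06 to 5.48), with a log2 ratio of -1.09 in place of -2.23 after the GC and length correction. Plaa, the phospholipase A2-activating protein gene, was 2.43-fold lower (2.25 to 2.63), a log2 ratio that was -0.99 after that correction. Acsl6 had a log2 ratio of -1.07 (-1.96 to -0.25), shares 202 exon bases with the antisense gene Gm12224, and was short of 2-fold at -0.57 after the correction.

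Of the other receptor genes, Ptgfr was higher in p65 null, unlike Ptger4. Ptgfr, the prostaglandin F receptor gene, stood at 6.30 normalised CPM in p65 null and 1.04 in p65 WT, from 95.5 and 22 fragments. That is 6.07-fold higher (3.79 to 10.1), with a log2 ratio of 3.57 in place of 2.60 after the GC and length correction. Within its gene span Ptgfr shares 227 exon bases with the antisense gene Gm43618. Its whole matched transcript has a match to 1 other gene at 100% identity over at least 300 bases, so its reads may be shared. The list held 4 measured receptor genes or partners. Of these, 2, Ptgfr and the EP1 receptor gene Ptger1, were past 2-fold higher and 0 past 2-fold lower. Over all measured genes these shares were 12.2% and 13.7%. The count of Ptger1 is uncertain and its values are not given. Cbr3, a carbonyl reductase gene, was 3.52-fold higher (2.93 to 4.24). Mgst2, which encodes a microsomal glutathione transferase able to make leukotriene C4, had a log2 ratio of 1.78 (1.11 to 2.49).

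The epoxide branch held differences in both directions, with 3 of its 5 measured genes past 2-fold higher and 1 past 2-fold lower. Over all measured genes these shares were 12.2% and 13.7%. The counting interval was past 2-fold higher at both ends for 2 of the 5. After the GC and length correction, 4 of the 5 were past 2-fold higher. Ephx1, the microsomal epoxide hydrolase gene, stood at 155 normalised CPM in p65 null and 17.1 in p65 WT, 9.08-fold higher (8.12 to 10.2). Ephx2, which encodes the soluble epoxide hydrolase that acts on epoxides of arachidonic acid, was at 3.50 in p65 null and 14.2 in p65 WT, 4.05-fold lower (3.01 to 5.52). The cytochrome P450 genes Cyp2j9 and Cyp4f13 had log2 ratios of 4.46 (2.49 to 7.57) and 1.40 (0.62 to 2.22), Cyp2j9 resting on 2 fragments in p65 WT and Cyp4f13 reaching 0.99, short of 2-fold, under ribosomal protein scaling.

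**Figure D5:**
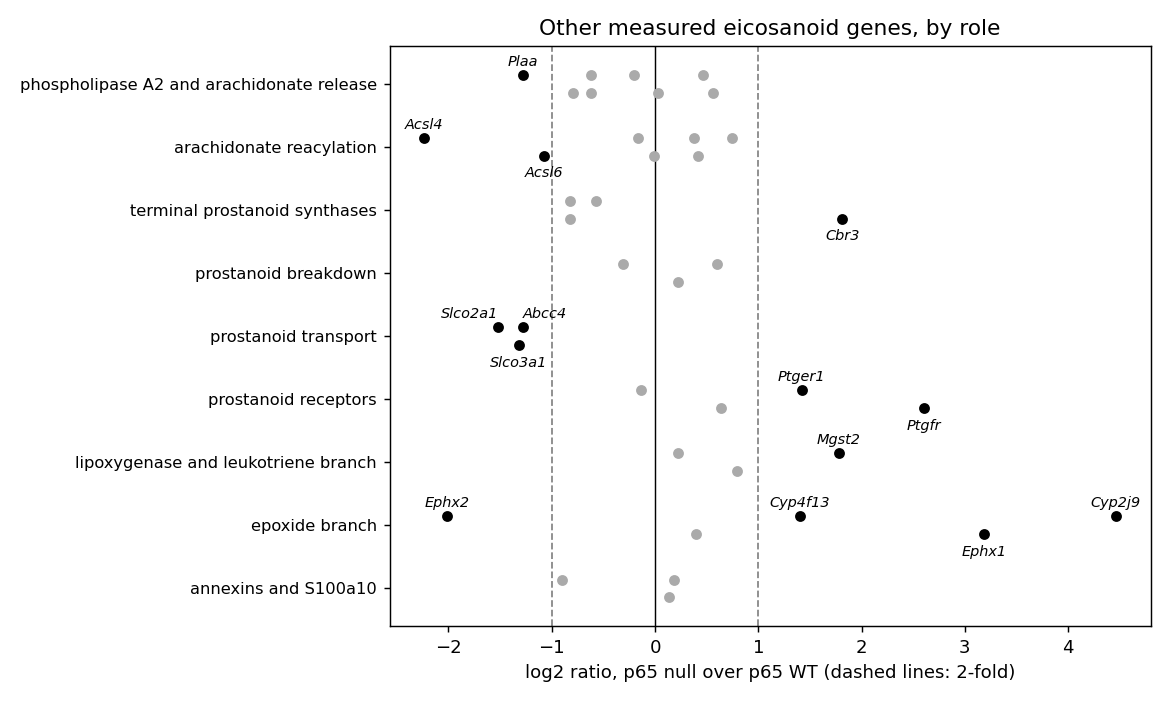
Log2 ratios (p65 null over p65 WT, 1 library each) of the 40 measured genes of the wider eicosanoid list, 1 point per gene in rows by role, with 2-fold lines dashed; black points with names are at least 2-fold apart. The 3 transport genes all lie left of the 2-fold line, between -1.52 and -1.28, and Ephx1 and Ephx2 lie on opposite sides at 3.18 and -2.02.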

How the data were processed

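Per the labels, total RNA of p65 null and p65 WT MEFs was extracted with Trizol and sequenced by Illumina, 1 library each. Tools listed in the submitters' processing notes are STAR 2.4, bcl2fastq 2.16, edgeR and HOMER, with mm10 as the build and no roles given. The deposited table, although named as raw counts, holds a scaled signal: both columns sum to 18117930 (p65 null) and 18117934 (p65 WT). Values were whole multiples of 0.587 and 0.436 units in 100% of 15594 and 15777 values under 20000 units (tolerance 0.0055 units). Even multiples prevailed, so 2 steps were taken as 1 fragment. A count test on the recovered reads was not run, because without replicates it could not estimate the spread.

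Transcripts were matched to symbols through RefSeq (16739) or GENCODE M21 (87), 55 being unmatched. Scaling used edgeR 4.0.16 (TMM factors 0.981 and 1.02) in R 4.3.3. Intervals are exact Clopper-Pearson intervals for the share of fragments from 1 library, and they cover counting error only. A library at 0 was set to a floor of 3 fragments. Alternatives were DESeq2 1.42.0, total, upper quartile and ribosomal protein scaling, thinning, leaving out the 10 most abundant genes, other expression minimums, a prior count of 2 and a correction by loess with a span of 0.3 for transcript GC content and length (98.8% of genes had values). The intervals were also run on simulated counts drawn with counting error only, which cannot show how they fare with variation between cultures. They held the true ratio for 96% of genes simulated with no difference. At true differences of 2-fold, 4-fold and 8-fold they held it for 98.5%, 92.1% and 91.3% of 68, 63 and 69 genes.

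The members and lists were chosen with earlier results of these data known. The text names all members, Rela, measured genes of the wider list at least 2-fold apart (up to 8 each way), and cell type markers; the values of Ptger1 are not reported here. Neighbouring genes were chosen by position, and Ddx3y, Xist and the genes of the closing section after their values were seen.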

Additional observations from a re-analysis of the deposited data

How the results depend on the processing

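Of 64 log2 ratios of single members under 8 other settings, 61 kept their direction and their side of 2-fold. The exceptions were Pla2g4a after the GC and length correction (-0.64), and Ptges2 (-0.08) and Ptges3 (-1.13) under ribosomal protein scaling. The count of members at least 2-fold lower ran from 5 to 7. Rela had a log2 ratio of -3.20 both under ribosomal protein scaling and after the correction, against -2.79. In the wider list, 13 genes were at least 2-fold lower under ribosomal protein scaling, and 13 were at least 2-fold higher with no expression minimum against 3 with a minimum of 5 CPM. The median of that list ran from -0.38 under ribosomal protein scaling to 0.19 under upper quartile scaling, which moved the median of all genes by -0.41 and 0.11. Without dividing by length, the Ptgs2 to Ptgs1 ratio was 2.14 in p65 null and 11.6 in p65 WT. After the GC and length correction, the log2 difference between the libraries was -1.34 in place of -2.44 for Ptgs2 to Ptgs1, -4.88 in place of -4.23 for Ptges to Ptges3 and -0.40 in place of -1.05 for Ptges3 to Ptges2. Over all genes, 3020 were at least 2-fold lower and 900 higher under ribosomal protein scaling, against 1667 and 1475. The correction left 1086 lower, no minimum gave 2230 higher, a minimum of 5 CPM 924 higher, and the interval end nearest 0 gave 1104 lower and 965 higher. The cause of these changes was not tested. The settings for Rela, Ptgs2os and the named genes of the wider list, for the median of that list and for the corrected ratios between members were added after seeing the data. Depth limits Ptger2 and Ptger4 most. No paired analysis was possible because each genotype had 1 library.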

Other observations

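Several eicosanoid genes under the expression minimum had few fragments in either library, and they were picked after their values were seen. The prostacyclin receptor gene Ptgir had 14 fragments in p65 null and 4 in p65 WT, a log2 ratio of 2.29 (0.62 to 4.35). The leukotriene C4 synthase gene Ltc4s had 17.5 and 3, a log2 ratio of 3.03 (1.25 to 5.44). Alox5ap, which encodes the protein that presents arachidonic acid to 5-lipoxygenase, had 9.5 and 3 fragments, while Alox5 itself had 1 and 2. The thromboxane synthase gene Tbxas1 had 0 fragments in p65 null and 7 in p65 WT. The monoacylglycerol lipase gene Mgll, whose enzyme frees arachidonic acid from an endocannabinoid, had 3 fragments in p65 null and 25 in p65 WT, a log2 ratio of -2.57 (-4.95 to -0.86).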
